A study of Arabidopsis thaliana with 10 samples.

Results

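The mitochondrial genome transcripts described here were all genes whose identifier starts with ATMG in the deposited count tables of an Arabidopsis thaliana seedling study, which is 146 of 33602 listed genes. The study sequenced RNA from 10 libraries that fall into 5 groups of 2. Whole seedlings were 5 days old and had grown in 24 h light of 100 µmol per square metre and second at 22 °C on LS medium. Every line was in the Col6-3 background, and RNA for a library was taken from over 100 pooled plants of 1 genotype. The groups were the gun1-9 mutant, the MORF2 overexpression lines MORF2OX and MORF2OX(w), and wild type, all 4 on 5 µM norflurazon, and wild type without it. Norflurazon inhibits phytoene desaturase in carotenoid synthesis, so that seedlings bleach in light. GUN1 is a pentatricopeptide repeat protein that acts in signalling from plastids to the nucleus, and MORF2 is a plastid RNA editing factor. The promoter that drives MORF2, the number of independent transformants and the lesion in gun1-9 are not given in the labels. Untreated libraries of the 3 lines were not analysed here, so a difference of a line from wild type on norflurazon cannot be told apart from one that would also exist without it. Nothing in the labels says whether the replicates were grown apart, so the p-values measure only the spread between these libraries, which may be technical.

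A plant mitochondrial genome encodes core subunits of the respiratory complexes and of ATP synthase, proteins of cytochrome c maturation, some ribosomal proteins, and ribosomal and transfer RNAs. Its transcripts are made by phage-type RNA polymerases from the nucleus, and many are spliced and edited from C to U before translation. A poly(A) tail marks mitochondrial RNA of plants for decay, in contrast to nuclear messenger RNA. The libraries were selected for polyadenylated RNA, so each value below covers that fraction of a mitochondrial transcript and not its total amount. The tissue was whole seedling, where fewer cells of a type and less RNA per cell cannot be told apart.

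Chromosome 2 of Arabidopsis carries a large nuclear copy of mitochondrial DNA, and this bears on which gene a read was counted for. In the TAIR10.1 assembly, 9 aligned blocks of at least 2000 bases on chromosome 2, between positions 3239038 and 3509765, covered 71.2% of the mitochondrial sequence of 367808 bases with 99.76% identity. RefSeq notes on chromosome 2 genes name 53 of the 146 ATMG identifiers, with 55 pairs of a mitochondrial identifier and a chromosome 2 partner. AT2G18323, the partner of ATMG00450, lies outside this stretch. Of the 55 partners, 52 aligned to the mitochondrial sequence over at least 95% of their length, 27 of these without a differing base and 24 with 1 to 5. A pair of windows shows how close the copies are. The first is the start of the partner of ATMG00730, annotated as cytochrome c oxidase subunit 3, at chr2:3312591-3312651 on the minus strand. It has the same letters at positions 330713 to 330773 of the minus strand of the mitochondrial sequence.
AT2G07687 and mitochondrial copy: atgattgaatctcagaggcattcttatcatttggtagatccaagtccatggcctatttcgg
The second window, in the first exon of AT2G07698, the partner of ATMG01190 (ATP synthase subunit 1), holds the single base that differs over its 2665 bases, which is in capitals. It lies at chr2:3361914-3361942 on the plus strand and at positions 69184 to 69212 of the minus strand of the mitochondrial sequence, outside the atp1 gene annotated there at positions 67098 to 68621.
AT2G07698: cgccccctttcctcTgcaacttacacatc
Mitochondrial copy: cgccccctttcctcCgcaacttacacatc
The mitochondrial sequence of TAIR10.1 may differ from the one used for counting, which the processing notes give as TAIR10 with no further detail.

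Counts of the pairs were split unevenly between the copies. In 29 of 55 pairs the chromosome 2 gene had more counts over the 10 libraries, in 13 the mitochondrial identifier had more, and 13 pairs had 0 counts at both. ATMG01190 had 6 counts and its partner AT2G07698 had 401. ATMG00220, annotated as apocytochrome b of the cytochrome bc1 complex, had 0 counts and AT2G07727 had 245, although the copies have identical letters over 3243 bases. ATMG00290, annotated as mitochondrial ribosomal protein S4, likewise had 0 counts and AT2G07734 had 223. The split ran the other way for ATMG00730, with 154 counts against 98 for AT2G07687, and for ATMG01320 (NADH dehydrogenase 2B, of complex I), with 130 against 8 for AT2G07689. A count of 0 for a member with such a partner does not show that its RNA was absent, and values of single copies are uncertain.

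**Figure D1:**
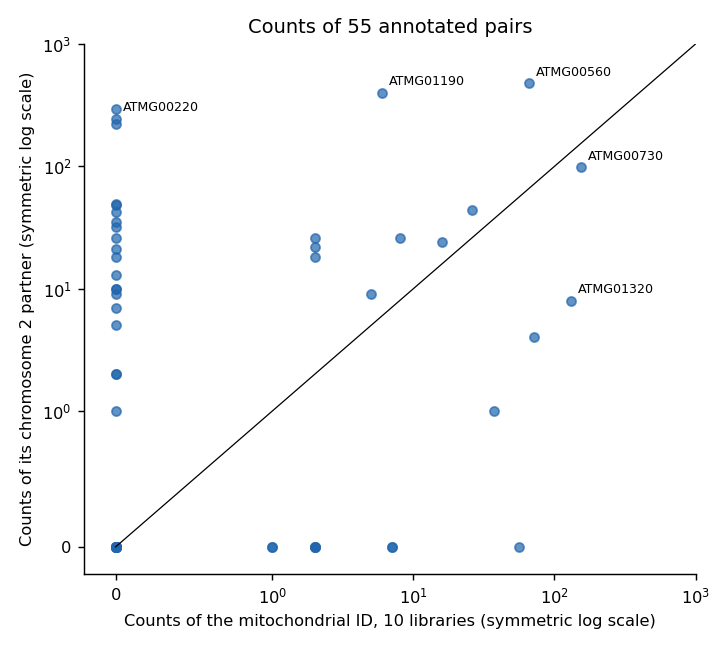
Counts summed over the 10 libraries for the 55 annotated pairs, with the mitochondrial identifier on the x axis and its chromosome 2 partner on the y axis, both in counts on a symmetric log scale that includes 0; each point is 1 pair and the line marks equal counts. Points above the line, such as ATMG01190 with 6 counts against 401, have more counts at the chromosome 2 gene (29 pairs), and points below it, such as ATMG01320 with 130 against 8, more at the mitochondrial identifier (13 pairs).

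Most members had few or no counts. Of the 146, 72 had 0 counts in every library, 37 had 1 to 9 in all, and 37 had 10 or more. The low-count filter of edgeR kept 25 for testing; the 121 others held 570 counts, which is 0.623% of the 91500 counts of all members, and the highest of them, ATMG00410 (ATPase subunit 6-1), had 56. Among the 53 identifiers with a noted partner, 4 were tested and 31 had 0 counts, against 21 tested and 41 at 0 among the 93 without one. The 4 were ATMG00730, ATMG01320, ATMG01080 (F0-ATPase subunit 9) and ATMG00560, whose note reads nucleic acid-binding, OB-fold-like protein. The reference used here pairs the other 21 tested identifiers with no name, and they are given by identifier alone.

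A pair of members held most of the signal. ATMG00020 had 55921 counts (61.1% of all member counts), ATMG01390 had 23876 (26.1%) and ATMG00030 had 3124 (3.41%). Together these 3 held 90.6%, so any summed value follows them unless they are left out. The 22 other tested members held 8.75%.

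The libraries held 19018594 to 25220815 counts each, of which 0.016% to 0.0891% were of members (3360 to 18528 counts). Levels are given in CPM, counts scaled to library size with TMM factors of 0.7223 to 1.271. MORF2 was at 7967 and 7246 CPM in MORF2OX and 4428 and 5010 CPM in MORF2OX(w), against 99.63 to 122.66 CPM in the gun1-9 and wild-type libraries on norflurazon; its locus, AT2G33430, is taken from general knowledge. GUN1 was at 153.98 and 146.84 CPM in gun1-9, against 191.18 and 283.63 CPM in wild type on norflurazon. Replicates stood apart in every group but MORF2OX by the chi-square of the member counts. This value grows with the counts, so the leading members weigh most in it. Per member it was 32.36 in gun1-9, 294.1 in MORF2OX(w), 72.46 in wild type on norflurazon and 16.19 in untreated wild type. In MORF2OX it was 1.169. In gun1-9, replicate 2 was higher than replicate 1 in 22 of the 25 tested members, at 1.42 times the level in the leading 3 and 1.84 times in the rest. MORF2OX(w) replicate 2 had 3.44 times the level of replicate 1 in the sum of the 3 leading members, but 1.18 times in the sum of all others. In wild type on norflurazon, replicate 2 was lower than replicate 1 in 24 of the 25 tested members, at 0.525 times the level in the leading 3 and 0.469 times in the rest, and the other genes of these replicates also differed most of all groups (chi-square of the counts of 36 per gene, against 4.863 to 10.09 elsewhere).

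The summed level of the members was highest in gun1-9 and in 1 of the MORF2OX(w) libraries. It was 542 and 796 CPM in gun1-9, 228 and 221 CPM in MORF2OX, 255 and 819 CPM in MORF2OX(w), 470 and 245 CPM in wild type on norflurazon, and 221 and 279 CPM in untreated wild type. Without the 3 leading members the sum was 68.4 and 126 CPM in gun1-9, 19.2 and 18.5 CPM in MORF2OX, 25.4 and 29.8 CPM in MORF2OX(w), 41.9 and 19.6 CPM in wild type on norflurazon, and 11.6 and 16.6 CPM in untreated wild type. On this sum the gun1-9 libraries lay above all others and the untreated libraries below all others, and the high MORF2OX(w) library fell in with its replicate. The 3 leading members took 87.4% and 84.2% of member counts in gun1-9, against 91.1% and 92% in wild type on norflurazon. That share was highest in MORF2OX(w) replicate 2, at 96.4%.

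**Figure D2:**
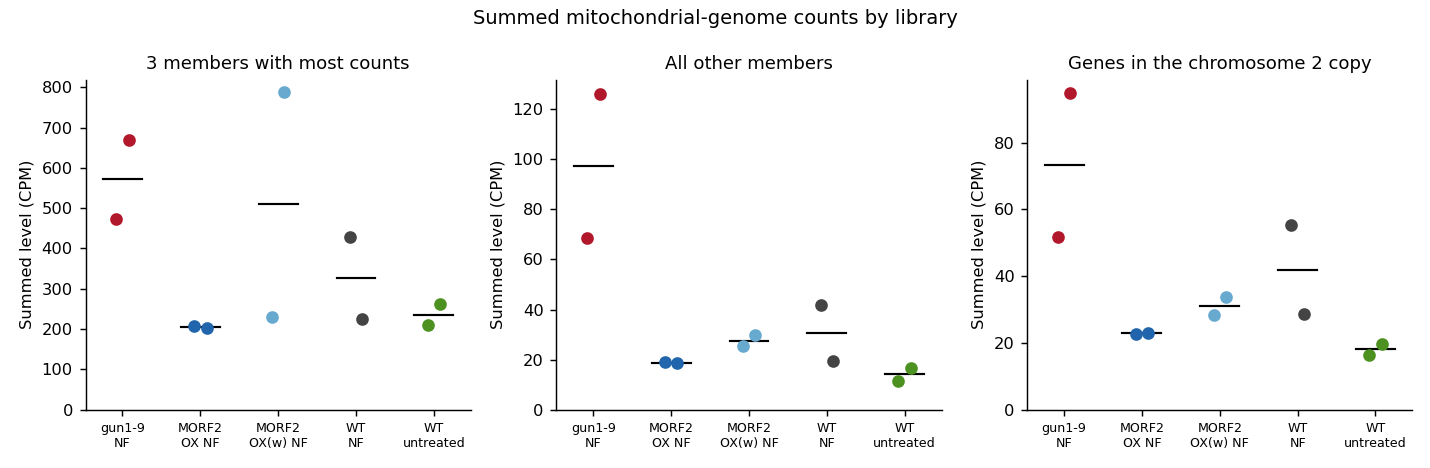
Level in CPM (linear axes from 0) summed over the 3 members with most counts, over all other members and over the 128 listed genes in the chromosome 2 copy; points are libraries and bars the mean of 2. The gun1-9 libraries are the highest in the middle panel, at 68.4 and 126 CPM, while in the left panel MORF2OX(w) replicate 2 is the highest.

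The gun1-9 mutant on norflurazon was compared with wild type on norflurazon. Transcripts of ATMG00730 and ATMG01320, which encode subunits of the respiratory chain, and of most other tested members were higher in gun1-9. By edgeR's quasi-likelihood test with Benjamini-Hochberg adjustment over 20628 genes, 17 of the 25 members were higher and 0 lower at an adjusted p under 0.05, where 22.9% of all genes tested were higher and 20.9% lower. The median log2 fold change was 1.61 over these 25 and -0.04 over all genes tested. However, ATMG00513, ATMG00560, ATMG01080, ATMG01120 and ATMG01200 passed the filter only through the gun1-9 libraries, and 4 of the 17 calls were among them. With the gun1-9 libraries left out of the filter, 13 of 20 members were higher and 0 lower. Most of the 17 calls were lost without gun1-9 replicate 2, the library with the highest value for 19 of the 25 members. That fit leaves gun1-9 with no replicate, so its calls were not set against the share of all genes.

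The largest fold changes called were those of ATMG00730, ATMG01000 and ATMG00080. ATMG00730, for a subunit of the terminal oxidase of the respiratory chain, had 1.09 and 2.36 CPM in gun1-9, 0.357 and 0.521 CPM in MORF2OX, 0.235 and 0.736 CPM in MORF2OX(w), 0.544 and 0.249 CPM in wild type on norflurazon, and 0.593 and 0.224 CPM in untreated wild type. Both gun1-9 libraries exceeded the other 8, which overlapped among themselves. Its log2 fold change in gun1-9 over wild type on norflurazon was 2.15 (SE 0.57, edgeR adjusted p = 0.00871).

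ATMG01000 had 1.48 and 2.79 CPM in gun1-9, 0.317 and 0.2 CPM in MORF2OX, 0.274 and 0.138 CPM in MORF2OX(w), 0.669 and 0.392 CPM in wild type on norflurazon, and 0.79 and 0.673 CPM in untreated wild type. The gun1-9 libraries were the highest, and those of the overexpression lines the lowest. Its log2 fold change in gun1-9 over wild type on norflurazon was 2.03 (SE 0.41, edgeR adjusted p = 0.00176).

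ATMG00080 had 9.73 and 18.4 CPM in gun1-9, 1.31 and 1.76 CPM in MORF2OX, 3.01 and 2.39 CPM in MORF2OX(w), 5.48 and 1.71 CPM in wild type on norflurazon, and 0.922 and 1.29 CPM in untreated wild type. The gun1-9 values exceeded all others, and the wild-type replicates on norflurazon spanned those of both overexpression lines except the lowest of MORF2OX. Its log2 fold change in gun1-9 over wild type on norflurazon was 2.00 (SE 0.41, edgeR adjusted p = 0.0021). ATMG00090 moved beside it, with 22.1 and 42.8 CPM in gun1-9, 3.41 and 3.00 CPM in MORF2OX, 6.53 and 4.97 CPM in MORF2OX(w), 12.5 and 4.31 CPM in wild type on norflurazon, and 0.79 and 3.08 CPM in untreated wild type, and a log2 fold change of 1.97 (SE 0.45, edgeR adjusted p = 0.00372).

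The other members with an annotated product varied in the same comparison. ATMG01320, for a part of the NADH dehydrogenase that feeds electrons into the chain, had 1.19 and 1.98 CPM in gun1-9, 0.119 and 0.32 CPM in MORF2OX, 0.43 and 0.368 CPM in MORF2OX(w), 0.628 and 0.285 CPM in wild type on norflurazon, and 0.198 and 0.224 CPM in untreated wild type. It was higher in gun1-9 than in wild type on norflurazon, with a log2 fold change of 1.82 (SE 0.44, edgeR adjusted p = 0.00567). ATMG01080, for the membrane ring of ATP synthase, had 0.593 and 0.473 CPM in gun1-9, 0.198 and 0.28 CPM in MORF2OX, 0.195 and 0.368 CPM in MORF2OX(w), 0.418 and 0.142 CPM in wild type on norflurazon, and 0.198 and 0.392 CPM in untreated wild type. Its gun1-9 libraries were the highest of all, but the fold change of 0.95 on the log2 scale did not pass (SE 0.56, edgeR adjusted p = 0.189). ATMG00560 had 0.395 and 1.16 CPM in gun1-9, 0.0397 and 0.12 CPM in MORF2OX, 0.274 and 0.276 CPM in MORF2OX(w), 0.377 and 0.0712 CPM in wild type on norflurazon, and 0.0659 and 0.112 CPM in untreated wild type. It was called higher (log2 fold change 1.87, SE 0.67, edgeR adjusted p = 0.0394), at few counts and through a filter that rested on gun1-9.

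The 3 leading members did not pass. ATMG00020 had 309 and 468 CPM in gun1-9, 147 and 140 CPM in MORF2OX, 160 and 486 CPM in MORF2OX(w), 291 and 161 CPM in wild type on norflurazon, and 144 and 182 CPM in untreated wild type. Its gun1-9 libraries lay above those of wild type on norflurazon, with a log2 fold change of 0.78 (SE 0.41, edgeR adjusted p = 0.139). ATMG01390 had 144 and 184 CPM in gun1-9, 52.1 and 52 CPM in MORF2OX, 60.3 and 275 CPM in MORF2OX(w), 121 and 54.7 CPM in wild type on norflurazon, and 56.6 and 70.4 CPM in untreated wild type, with a log2 fold change of 0.91 (SE 0.51, edgeR adjusted p = 0.172). ATMG00030 had 20.0 and 18.3 CPM in gun1-9, 9.28 and 10.3 CPM in MORF2OX, 8.88 and 27.9 CPM in MORF2OX(w), 16.7 and 8.98 CPM in wild type on norflurazon, and 8.76 and 10.4 CPM in untreated wild type, with a log2 fold change of 0.58 (SE 0.40, edgeR adjusted p = 0.257). All 3 were about as high in MORF2OX(w) replicate 2 as in gun1-9 or higher. In MORF2OX(w), replicate 2 was above replicate 1 in 17 of 24 members with a level in both (median ratio 1.29), ATMG00730 among them with 0.736 against 0.235 CPM, whereas ATMG01000, ATMG00080 and ATMG00090 were lower in replicate 2.

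The other members called higher in gun1-9 were ATMG00060, ATMG00070, ATMG00110, ATMG00510, ATMG00513, ATMG00640, ATMG00650, ATMG00690, ATMG01120, ATMG01200 and ATMG01360, with log2 fold changes of 1.40 to 1.97. ATMG00160, ATMG00660, ATMG01130 and ATMG01170 did not pass, and ATMG00660 was the only tested member with a negative estimate (-0.35, SE 0.53). In 22 of the 25 members both gun1-9 libraries were above both wild-type libraries on norflurazon, where 33.6% of all genes tested were so and 35.3% the other way round, and in the other 3 they overlapped. Among the 22 were ATMG00513, ATMG00560, ATMG01080, ATMG01120 and ATMG01200. They passed the filter only through the gun1-9 libraries, which favoured such a separation. ATMG00080, ATMG01000 and ATMG01360 were the calls that held in every alternative fit. Without replicate 2 of wild type on norflurazon 12 members were higher and ATMG00660 was lower. The count per 1000 counts of ATMG00020, which needs no library scaling, was 71.5 and 91.5 for ATMG00090 in gun1-9, against 43.0 and 26.7 in wild type on norflurazon. Of 85 plastid-encoded genes tested, also read from the polyadenylated fraction, 0 were higher and 16 lower in gun1-9, beside the 22.9% and 20.9% of all genes. Their summed level overlapped, at 413 and 684 CPM in gun1-9, against 1229 and 626 CPM in wild type on norflurazon.

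**Figure D3:**
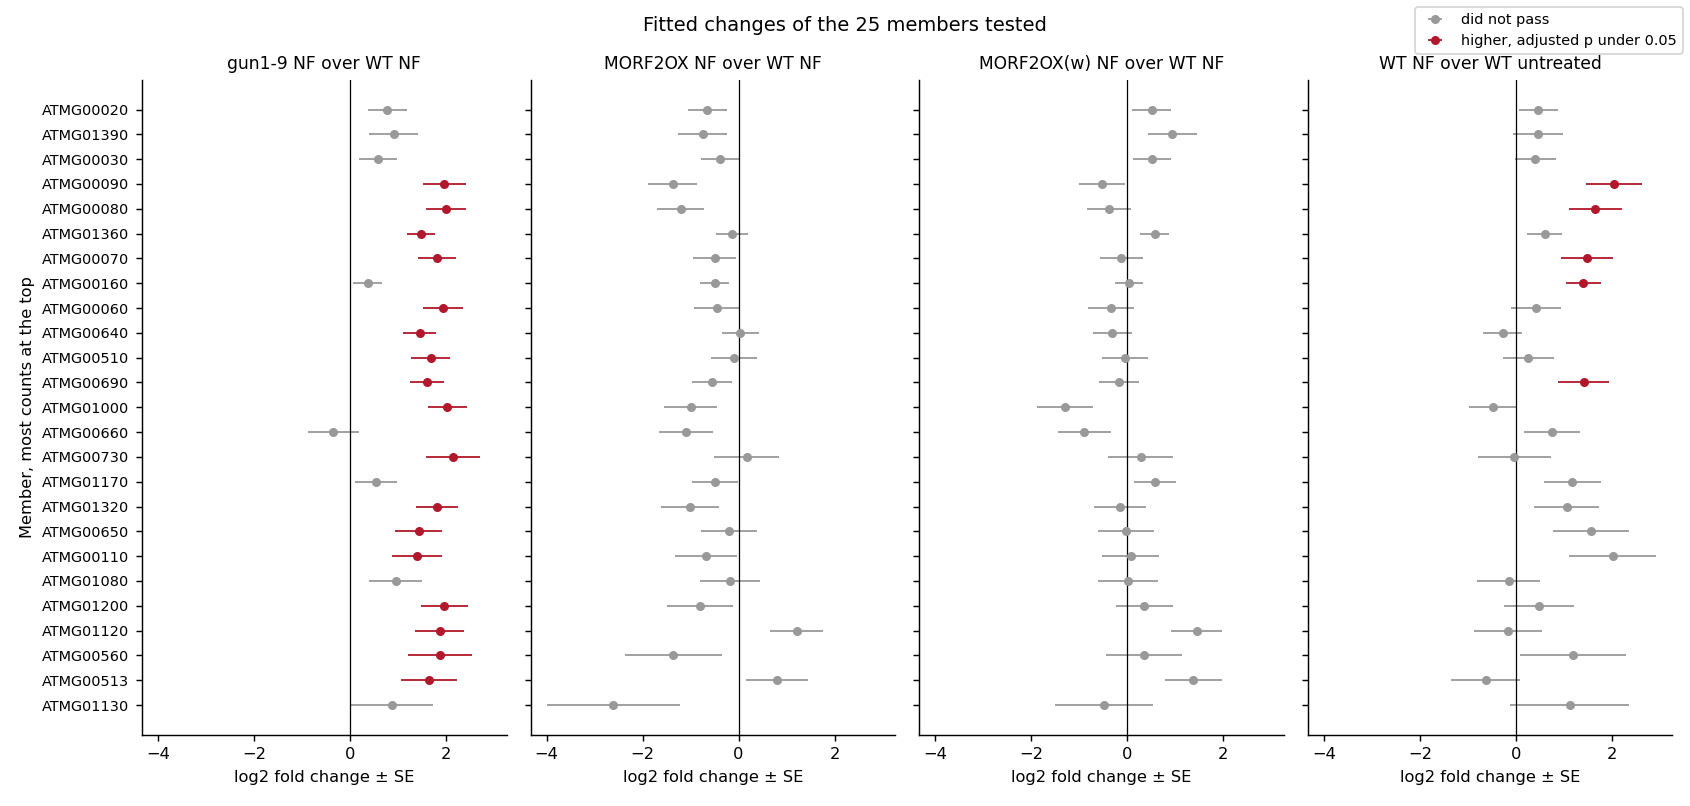
Fitted log2 fold changes (x axis) of the 25 tested members (y axis, most counts at the top) in 4 comparisons; points are estimates, bars 1 SE, and red marks an adjusted p under 0.05. In gun1-9 over wild type on norflurazon 17 members pass and 24 of 25 estimates are positive, in both overexpression lines 0 pass, and with norflurazon over untreated wild type 5 pass.

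The 128 listed genes in the chromosome 2 copy had 8590 counts in all, and their summed level was 51.6 and 94.9 CPM in gun1-9, against 55.2 and 28.7 CPM in wild type on norflurazon. These ranges overlapped, unlike those of the members. Of the 17 such genes tested, 12 were higher and 1 lower in gun1-9 by edgeR's test, where 22.9% and 20.9% of all genes tested were. These 17 passed a filter that includes the gun1-9 libraries. Among the 12, AT2G07835 had 10 and 21 counts in gun1-9 and 0 to 4 in the other libraries. AT2G07825, also among them, had 11 and 24 counts in gun1-9 and 0 to 3 in the others. No count with the gun1-9 libraries left out of the filter was made for these 17 genes. AT2G07698 had 3.16 and 7.82 CPM in gun1-9, against 1.84 and 0.677 CPM in wild type on norflurazon (log2 fold change 2.16, SE 0.45, edgeR adjusted p = 0.00212). AT2G07734 had 2.47 and 4.9 CPM in gun1-9, against 0.879 and 0.392 CPM in wild type on norflurazon (log2 fold change 2.56, SE 0.42, edgeR adjusted p = 0.000367). AT2G07711 fell, with 2.12 and 3.82 CPM in gun1-9 against 6.95 and 4.1 CPM in wild type on norflurazon (log2 fold change -0.87, SE 0.29, edgeR adjusted p = 0.0301). Of the same 17 genes, 0 were higher and 3 lower in MORF2OX over wild type on norflurazon, where 19.3% and 14.1% of all genes were. In MORF2OX(w) 0 and 0 were, where 8.36% and 4.53% of all genes were. Norflurazon over untreated wild type gave 7 higher and 0 lower, where 30.5% and 34.5% of all genes were. Counts summed over a member and its partner do not depend on how reads were split between them, though reads left out for matching both would be in neither. The fit with such sums kept members without a noted partner, most of those tested, at their own counts. Sums of ATMG00220, ATMG00290, ATMG00400, ATMG00500, ATMG00730, ATMG01190 and ATMG01320 were higher in gun1-9, and those of ATMG00560 and ATMG01080 did not pass. Over sums and single members together, 21 of 30 tested were higher in gun1-9 and 0 lower, through a filter that includes the gun1-9 libraries. With these left out of the filter, 17 of 26 were higher and 0 lower, where 22.9% and 20.9% of all genes were in the fit without summing. ATMG00400 with its partner, at 15 and 31 counts in gun1-9 and 0 to 5 in the other libraries, was among the 30. ATMG01190 with its partner had 65 and 185 counts in gun1-9, against 44 and 19 in wild type on norflurazon (log2 fold change 2.18, SE 0.45, edgeR adjusted p = 0.00191). ATMG00220 with its partner had 35 and 102 counts in gun1-9, against 31 and 11 in wild type on norflurazon (log2 fold change 1.90, SE 0.50, edgeR adjusted p = 0.00887). ATMG00730 with its partner had 46 and 82 counts in gun1-9, against 27 and 12 in wild type on norflurazon (log2 fold change 1.93, SE 0.50, edgeR adjusted p = 0.00785). Summing ended the call of ATMG00560, whose partner AT2G07715 was at 2.17 and 3.18 CPM in gun1-9, against 1.88 and 2.78 CPM in wild type on norflurazon.

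Wild type on norflurazon was set against untreated wild type to see what the inhibitor did to these transcripts. Of the 25 members, 5 were higher and 0 lower by edgeR's test, where 30.5% of all genes tested were higher and 34.5% lower. ATMG00090 changed most, with the levels given above: the norflurazon libraries (12.5 and 4.31 CPM) lay above the untreated ones (0.79 and 3.08 CPM), for a log2 fold change of 2.05 (SE 0.58, edgeR adjusted p = 0.00791). ATMG00080 was at 5.48 and 1.71 CPM on norflurazon, against 0.922 and 1.29 CPM untreated (log2 fold change 1.66, SE 0.56, edgeR adjusted p = 0.0204). ATMG00070 had 5.43 and 13.5 CPM in gun1-9, 1.82 and 2 CPM in MORF2OX, 2.03 and 2.99 CPM in MORF2OX(w), 3.39 and 2.07 CPM in wild type on norflurazon, and 0.527 and 1.35 CPM in untreated wild type. With norflurazon it was higher in wild type by a log2 fold change of 1.49 (SE 0.54, edgeR adjusted p = 0.0295). The other calls were ATMG00160 (log2 fold change 1.41, SE 0.37, edgeR adjusted p = 0.00555), the only one held in every alternative fit, and ATMG00690 (1.42, SE 0.53, edgeR adjusted p = 0.0315).

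The remaining 20 did not pass with norflurazon, and 10 of the 25 members had both norflurazon libraries above both untreated ones, where 37.8% of all genes tested did, and 1 member had both below, where 41.1% did. The median log2 fold change was 0.6 over the 25 members and -0.03 over all genes tested. ATMG00730 (log2 fold change -0.03, SE 0.76) and ATMG01000 (-0.47, SE 0.50), called in gun1-9, were not among those higher with norflurazon. The summed level of all members overlapped between 470 and 245 CPM with norflurazon and 221 and 279 CPM without, and the 5 calls fell to 1 without replicate 1 of wild type on norflurazon and to 2 without untreated replicate 1. Scaling by library totals alone shifted the median of all genes by 0.702 on the log2 scale in this comparison. It gave 15 members higher, where 15893 of 20628 genes were called in either direction.

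**Figure D4:**
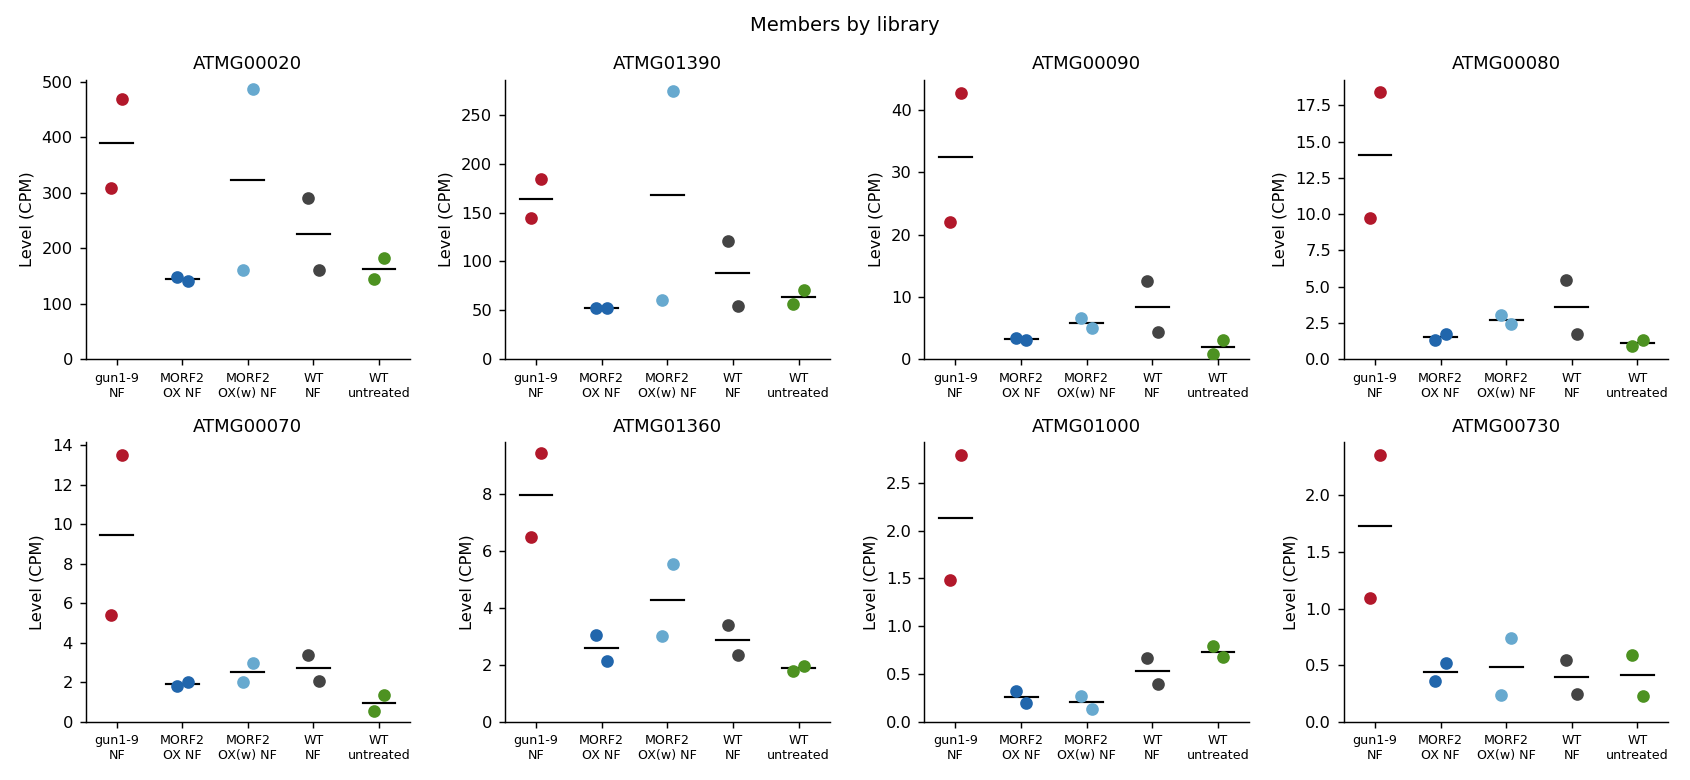
Level in CPM (linear axes from 0) of 8 members in each library, with gun1-9 at the left and untreated wild type at the right; points are libraries and bars the mean of 2. ATMG00020 and ATMG01390 jump in MORF2OX(w) replicate 2 (486 and 275 CPM), while ATMG00090, ATMG00080, ATMG00070, ATMG01360, ATMG01000 and ATMG00730 are highest in the gun1-9 libraries, with ATMG00090 at 22.1 and 42.8 CPM.

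Overexpression of MORF2 was compared with wild type on norflurazon in both lines. By edgeR's quasi-likelihood test, 0 of the 25 members passed in MORF2OX (3 at an unadjusted p under 0.05; 1, lower, with DESeq2), where 33.4% of all genes tested did, 19.3% higher and 14.1% lower. The lowest adjusted p was that of ATMG00090, whose MORF2OX libraries (3.41 and 3.00 CPM) lay below those of wild type on norflurazon (12.5 and 4.31 CPM), with a log2 fold change of -1.37 (SE 0.51, edgeR adjusted p = 0.055). Both MORF2OX libraries were below both wild-type libraries for 8 members and above them for 2, where 30.0% and 34.4% of all genes tested were so. The summed level, 228 and 221 CPM in MORF2OX, was below the 470 and 245 CPM of wild type on norflurazon, a difference of -0.60 in mean log2 CPM that was -0.13 without replicate 1 and -1.07 without replicate 2 of wild type on norflurazon. Calls of members, all lower, appeared without that replicate 2, and without untreated replicate 1 or untreated replicate 2. Each of these fits leaves a group with no replicate, so its calls were not set against the share of all genes.

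In MORF2OX(w), 0 of the 25 members passed edgeR's test against wild type on norflurazon (3 at an unadjusted p under 0.05; 0 with DESeq2), where 12.9% of all genes tested did, 8.36% higher and 4.53% lower. Both MORF2OX(w) libraries were above both wild-type libraries on norflurazon for 3 members and below them for 1, where 29.9% and 25.6% of all genes tested were so. The median log2 fold change was 0.02 in MORF2OX(w) and -0.5 in MORF2OX, against 0.01 and 0.02 over all genes tested; these comparisons share the wild-type libraries. The difference in summed level changed sign with 1 library: it was 0.43 in mean log2 CPM, and -0.41 without MORF2OX(w) replicate 2, and it was -0.04 without replicate 2 of wild type on norflurazon. Calls appeared among the members without MORF2OX(w) replicate 1, all higher, and without replicate 2 of wild type on norflurazon, all lower. Each of these fits leaves a group with no replicate, so its calls were not set against the share of all genes.

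MORF2OX over MORF2OX(w) likewise gave 0 calls among the 25 members by edgeR's test (5 at an unadjusted p under 0.05; 0 with DESeq2), where 1.81% of all genes tested were called, 1.5% higher and 0.315% lower. ATMG01390 had the lowest adjusted p, with 52.1 and 52 CPM in MORF2OX against 60.3 and 275 CPM in MORF2OX(w) (log2 fold change -1.69, SE 0.52, edgeR adjusted p = 0.154). Both MORF2OX libraries were below both MORF2OX(w) libraries for 12 members and above them for 0, where 23.1% and 28.7% of all genes tested were so. The summed difference of -1.03 in mean log2 CPM was -0.18 without MORF2OX(w) replicate 2. A call, lower, appeared without MORF2OX(w) replicate 1 or without either library of wild type on norflurazon, fits that leave a group with no replicate.

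The gun1-9 mutant was also set directly against each overexpression line on norflurazon, a pair of comparisons added after the data were seen and sharing the gun1-9 libraries. Over MORF2OX, 19 of the 25 members were higher and 0 lower by edgeR's test, where 18.1% of all genes tested were higher and 17.1% lower. All 25 had both gun1-9 libraries above both MORF2OX libraries, where 37.0% of all genes tested did (37.5% the other way), and this included the 3 leading members and the 5 that the gun1-9 libraries brought through the filter. With the gun1-9 libraries left out of the filter, 17 of 20 were higher and 0 lower. ATMG00090 (log2 fold change 3.34, SE 0.49, edgeR adjusted p = 0.000313), ATMG00560 (3.23, SE 0.81, edgeR adjusted p = 0.00883) and ATMG01130 (3.49, SE 1.25, edgeR adjusted p = 0.0473) had the largest fold changes called. ATMG00560 passed the filter only through gun1-9, and summed with its partner its log2 fold change was 0.82 (SE 0.29, edgeR adjusted p = 0.047). ATMG01130 rested on few counts, with 0.445 and 0.559 CPM in gun1-9, 0.0793 and 0 CPM in MORF2OX, 0 and 0.414 CPM in MORF2OX(w), 0.377 and 0.178 CPM in wild type on norflurazon, and 0 and 0.224 CPM in untreated wild type. ATMG00020 passed here (log2 fold change 1.44, SE 0.41, edgeR adjusted p = 0.0176), as did ATMG01390 (1.66, SE 0.52, edgeR adjusted p = 0.0272), while ATMG00030 did not (0.96, SE 0.41, edgeR adjusted p = 0.0848). Without gun1-9 replicate 2 the 19 calls became 9, and they also became 9 without MORF2OX replicate 1.

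Over MORF2OX(w), 13 of the 25 members were higher in gun1-9 and 0 lower by edgeR's test, where 19.0% of all genes tested were higher and 16.7% lower. With the gun1-9 libraries left out of the filter, 12 of 20 were higher and 0 lower, since the call of ATMG01200 was of a member that passed only through gun1-9. ATMG01000 (log2 fold change 3.32, SE 0.49, edgeR adjusted p = 0.000243), ATMG00090 (2.49, SE 0.46, edgeR adjusted p = 0.00131) and ATMG00080 (2.38, SE 0.43, edgeR adjusted p = 0.00105) had the largest fold changes called. The estimates of ATMG00020 (0.27, SE 0.40), ATMG01390 (-0.03, SE 0.51) and ATMG00030 (0.07, SE 0.39) were near 0 and did not pass. Both gun1-9 libraries were above both MORF2OX(w) libraries for 19 members and below them for 0, where 37.1% and 38.0% of all genes tested were so. Among the 19 were ATMG00560, ATMG01080, ATMG01120 and ATMG01200, which passed the filter only through the gun1-9 libraries. Without gun1-9 replicate 2, 5 members were called.

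In gun1-9 over wild type on norflurazon, nuclear genes for mitochondrial functions did not follow the members in a body. Of 41 nuclear subunits of oxidative phosphorylation, all tested, 8 were higher and 15 lower in gun1-9 over wild type on norflurazon (median log2 fold change -0.24, against -0.04 over all genes tested), where 22.9% and 20.9% of all genes were. AT5G25450, from this list, averaged 26.5 ± 0.00968 CPM in gun1-9 and 2.62 ± 0.379 CPM in wild type on norflurazon (SD, n = 2 each; log2 fold change 3.34, SE 0.22, edgeR adjusted p = 2.54e-07). GAMMA CAL2, a carbonic anhydrase-like part of complex I, averaged 52.2 ± 1.04 CPM in gun1-9 and 117 ± 31.6 CPM in wild type on norflurazon (log2 fold change -1.16, SE 0.16, edgeR adjusted p = 9.08e-05). Among the 41, 1 was higher and 18 lower in MORF2OX over wild type on norflurazon, where 19.3% and 14.1% of all genes were. In MORF2OX(w) 0 were higher and 2 lower, where 8.36% and 4.53% of all genes were, and in MORF2OX over MORF2OX(w) 0 and 0, where 1.5% and 0.315% were. In gun1-9 over MORF2OX 8 were higher and 3 lower, where 18.1% and 17.1% of all genes were. The median log2 fold change there was 0.12, against -0.01 over all genes tested. In gun1-9 over MORF2OX(w) 7 were higher and 4 lower, where 19.0% and 16.7% of all genes were. With norflurazon in wild type 13 were higher and 6 lower, where 30.5% and 34.5% of all genes were. AT5G25450 averaged 2.62 ± 0.379 CPM with norflurazon and 0.361 ± 0.0446 CPM without (SD, n = 2 each; log2 fold change 2.83, SE 0.40, edgeR adjusted p = 5.36e-05). GAMMA CAL2 averaged 117 ± 31.6 CPM with norflurazon and 36.4 ± 0.675 CPM without (log2 fold change 1.68, SE 0.16, edgeR adjusted p = 2.13e-06). FRO1, a subunit of complex I, averaged 41.3 ± 8.69 CPM with norflurazon and 93 ± 1.06 CPM without (log2 fold change -1.17, SE 0.14, edgeR adjusted p = 1.39e-05).

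Of 17 nuclear genes for synthesis, splicing and decay of mitochondrial RNA, 2 were higher and 3 lower in gun1-9 over wild type on norflurazon, where 22.9% and 20.9% of all genes were. AT5G14580, a polyribonucleotide nucleotidyltransferase, an enzyme of RNA decay, averaged 4.71 ± 0.512 CPM in gun1-9, 3.73 ± 0.111 CPM in MORF2OX, 7.71 ± 0.35 CPM in MORF2OX(w) and 12.8 ± 0.991 CPM in wild type on norflurazon (SD, n = 2 each). Against wild type on norflurazon, its log2 fold change was -1.44 in gun1-9 (SE 0.17), -1.78 in MORF2OX (SE 0.17) and -0.74 in MORF2OX(w) (SE 0.16), with edgeR adjusted p-values of 2.33e-05, 1.69e-05 and 0.0112 in that order. EMB2730, an exoribonuclease of mitochondrial and plastid RNA, averaged 76.1 ± 2.68 CPM in gun1-9 and 57.9 ± 11.2 CPM in wild type on norflurazon. Its log2 fold change in gun1-9 was 0.39 (SE 0.14, edgeR adjusted p = 0.0332). In MORF2OX it averaged 97.5 ± 4.56 CPM (log2 fold change 0.75 over wild type, SE 0.13, edgeR adjusted p = 0.00151). In MORF2OX(w) it averaged 84.8 ± 7.55 CPM (0.55, SE 0.13, edgeR adjusted p = 0.0215). The other gene higher in gun1-9, AT1G74350, averaged 4.18 ± 0.109 CPM there and 1.87 ± 0.985 CPM in wild type on norflurazon. Its log2 fold change was 1.14 (SE 0.3, edgeR adjusted p = 0.00817). Of the 17 genes, 1 was higher and 7 lower in MORF2OX over wild type on norflurazon (19.3% and 14.1% of all genes), 1 was higher and 2 lower in MORF2OX(w) (8.36% and 4.53%), and 6 were higher and 0 lower with norflurazon in wild type (30.5% and 34.5%). Among 6 mitochondrial RNA editing factors, 0 were higher and 2 lower in gun1-9, 0 and 2 in MORF2OX, 0 and 0 in MORF2OX(w), and 4 and 0 with norflurazon in wild type, beside the same shares of all genes. In gun1-9 over MORF2OX, 4 of the 17 genes and 4 of the 6 editing factors were higher and 0 lower (18.1% and 17.1% of all genes). Over MORF2OX(w), 1 of the 17 was higher and 3 lower in gun1-9 (19.0% and 16.7%). Of the 6, 1 was higher and 0 lower. MORF1 averaged 16.6 ± 0.109 CPM in MORF2OX and 35.5 ± 12.1 CPM in wild type on norflurazon (log2 fold change -1.09, SE 0.19, edgeR adjusted p = 0.00124). Whether any of these genes bears on the member values was not tested.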

How the data were processed

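The deposited values were raw counts of reads per gene, 1 table per library, made by the authors with TopHat2 2.1.1 and Bowtie2 2.3.1 on TAIR10, with HTSeq 0.6.1 and edgeR also named, per the submitters' processing notes. Per the labels' protocols, 500 ng of total RNA went into a stranded kit that selects polyadenylated RNA, read from a single end. The settings, including strand and the treatment of reads that match several places, are not given in the labels or notes, so values of overlapping and copied genes are uncertain.

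From the counts, filterByExpr kept 20628 genes and left out 12974. All 10 libraries entered 1 fit of 5 group means in edgeR 4.0.16 (R 4.3.3), with TMM factors, glmQLFit and glmQLFTest. Benjamini-Hochberg adjustment ran over all genes tested, with a threshold of 0.05. The residual degrees of freedom were 5 and the common biological coefficient of variation was 11.1%. For the 25 members tested it was higher, at 14.2% to 39.4%. The standard error (SE) is the log2 fold change divided by the square root of F. The pipeline was tested on simulated data that gave every gene a spread near the common value, below that of the members. Mitochondrial and chromosome 2 sequences of TAIR10.1 (RefSeq) were aligned with minimap2 2.31 and partner genes with BLAST+ 2.17.0; names of identifiers came only from RefSeq notes. Members and lists were chosen with earlier results of these data known. Named were the 3 members with most counts, members with an annotated product that were tested, and the 3 largest called changes of each comparison; others singled out, ATMG00090 in gun1-9 over wild type among them, were chosen after their values were seen. Alternatives were DESeq2 1.42.0, other scalings and filters, the 2 groups alone, a replicate block and leaving out each library.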

Additional observations from a re-analysis of the deposited data

How the results depend on the processing

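No direction of a member called in the fits reported changed in any alternative fit that tested it. In gun1-9 over wild type without replicate 2 of wild type on norflurazon, ATMG00660, which did not pass with all libraries, was lower (log2 fold change -1.05, SE 0.40, edgeR adjusted p = 0.04), beside 12 members higher. Among the 5, 17, 19 and 13 calls in wild type with norflurazon, gun1-9 over wild type, gun1-9 over MORF2OX and gun1-9 over MORF2OX(w), 1, 3, 9 and 5 held in every fit that tested them. These fits did not all test 25 members. With DESeq2, a member given no adjusted p counted as not called. Members that entered the fits were 74 with DESeq2 or without a filter, and 16 with at least 1 CPM in 2 libraries. In fits of 2 groups alone they were 15 to 25, and with 1 library left out 26 to 31. A fit with 1 library left out leaves a group with no replicate, so its calls were not set against the share of all genes. For gun1-9 over wild type, 7990 of 26020 genes were called in either direction with DESeq2. With at least 1 CPM in 2 libraries, 8919 of 19343 were. For MORF2OX over wild type, genes called in either direction were 6069 of 26020 with DESeq2 and 7555 of 26020 without a filter. Of 20628 genes in that comparison, 7309 were called with upper-quartile factors and 9232 without TMM factors. Without a filter, 3861 of 26020 were called in MORF2OX(w) over wild type and 870 of 26020 in MORF2OX over MORF2OX(w). In the latter, 1286 of 19652 were called in the fit of the 2 groups alone. For wild type with norflurazon, 15 members were called without TMM factors, where 15893 of 20628 genes were in either direction. Without a filter 9 were, where 14066 of 26020 genes were. Leaving out 1 library gave 1 to 7. For gun1-9 over wild type, DESeq2 and a filter of at least 1 CPM in 2 libraries each called 11, and leaving out 1 library gave 3 to 19. For MORF2OX over wild type, DESeq2 and upper-quartile factors each called 1, no TMM factors 3 and no filter 4, all lower; leaving out 1 library gave 0 to 4. For MORF2OX(w) over wild type, 1 was called without a filter, and 0 to 3 with 1 library left out. For MORF2OX over MORF2OX(w), 3 were called without a filter and 1 in the fit of the 2 groups alone, and 0 to 1 with 1 library left out. For gun1-9 over MORF2OX the range was 9 to 23, and over MORF2OX(w) 5 to 18. With the replicate number as a block, the counts in these 7 comparisons were 6, 16, 0, 0, 0, 17 and 13. Of all 20628 genes, 13462, 9046, 6920, 2753, 388, 7254 and 7359 were called in the same order. The deviations of same-numbered replicates from their group means correlated at -0.102 to 0.089 over 10 pairs of groups. Such values cannot show whether same-numbered replicates were grown or handled together.

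The summed level of wild type with norflurazon over without was 0.45 in mean log2 CPM, 1.19 without TMM factors and -0.02 to 0.92 with 1 library left out. For gun1-9 over wild type it was 0.95 (0.48 to 1.42 with 1 library left out). For gun1-9 over MORF2OX it was 1.55 (1.27 to 1.83) and 2.3 without the 3 leading members, and over MORF2OX(w) 0.52 (-0.32 to 1.37). The ranges for MORF2OX over wild type, MORF2OX(w) over wild type and MORF2OX over MORF2OX(w) were -1.07 to -0.13, -0.41 to 1.27 and -1.87 to -0.18. The cause of these shifts was not tested. Without TMM factors the median of all genes shifted by 0.702 with norflurazon, -0.455 in gun1-9, -0.321 in MORF2OX and -0.186 in MORF2OX(w). Members other than the leading ones had few counts, which limits what could be detected.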
